A study of Mus musculus with 5 samples.

Results

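Ubiquitin-specific proteases (Usp genes) were followed in mouse brain slices while ribosomes ran off their mRNAs. The members were the genes of the deposited count table with a symbol of Usp, a number and at most 1 further letter and digit, and a coding sequence (CDS) under 8000 nt. This gave 44 of 10329 genes. Usp34, with a CDS of 10749 nt, was the 1 Usp gene past that limit, and Usp24, with 7854 nt, was the longest member. The series holds 5 libraries of ribosome-protected mRNA fragments (footprints), all from slices that held hippocampus and cortex of wild-type mice, male and C57BL/6N, at postnatal day 28 to 35. Slices of 400 µm recovered for 3 to 4 h and then received homoharringtonine (HHT) at 20 µM for 0, 5, 10, 30 or 60 min. HHT is a plant alkaloid that stops ribosomes just after initiation, so that those already elongating finish and leave. Each library came from 1 pool of 10 slices from 2 to 3 mice, so no time has a replicate, and the 0.05% DMSO vehicle has no library of its own at the later times. A change with time on HHT thus cannot be told apart from one with the vehicle or with time after slicing.

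Ubiquitin is a small protein that cells attach to other proteins, often as chains that send the target to the proteasome. Ubiquitin-specific proteases are cysteine proteases that cut ubiquitin off again, and they form the largest family of deubiquitinases in mammals. In neurons they act, among other places, on synaptic receptors, endosomes, mitochondria and histones.

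The libraries held 1346175 to 7155147 counts, with the most at 0 min and the fewest at 60 min. Of the neuronal markers of the tissue, 4 of 4 excitatory, 3 of 3 inhibitory and 2 of 3 general ones were in the count table. The general marker missing there, Snap25, was listed at 0 TPM in all 5 libraries, while another, Syt1, had 1144 TPM at 0 min. Why Snap25 was listed at 0 was not tested, and a listed 0 need not mean an absence of footprints. Markers of astrocytes (5 of 5), oligodendrocytes (4 of 5), microglia (5 of 5) and endothelium (2 of 3) were there too, so the slices were a mixture. The summed counts cannot tell fewer cells of a type from less translation per cell. The ratio of the 60 min signal to that at 0 min ran from 0.0134 to 0.162 over the 5 microglial markers, and from 0.0308 to 0.0911 over the 4 oligodendrocyte markers. It ran from 0.0961 to 0.171 over the astrocyte markers and from 0.0777 to 0.182 over the endothelial ones. The excitatory markers had 0.191 to 0.326, the inhibitory ones 0.146 to 0.315 and the general neuronal ones 0.130 to 0.286. The part of cell types in the Usp values was not tested.

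Before HHT, 2 members stood far above the others. Levels are given as footprint signal, the deposited count per kilobase of CDS less 600 nt and divided by 1 factor per library, so they can be compared between genes. Usp22, the histone H2B deubiquitinase of the SAGA coactivator complex, had the highest signal at 0 min, 4527. Usp14, which trims ubiquitin at the proteasome, followed at 4385. Together they held 39.7% of the summed signal of the 44 members. Usp5, which takes apart free ubiquitin chains, had 1819. Usp9x, a large X-linked enzyme needed for brain development, had 1155, its fellow X-linked gene Usp11 had 1081, and Usp2, a gene with daily rhythm in many tissues, had 1080. These 6 held 62.6%. In the deposited TPM table the share of Usp2 was 2.91% in place of 4.81%, and Usp33 and Usp20, at 95 and 88 TPM, stood above its 70. The median member had 173, below the median of 221 over all 10329 genes. At the bottom lay Usp43, Usp51 and Usp40 with 13.6, 13.7 and 16.4, close to Usp49 at 16.5. Their counts at 0 min were 38, 19, 51 and 24, so the order of these 4 is not resolved by counting error. The family spread over 16 chromosomes, 4 of its members lying on the X (Usp9x, Usp11, Usp27x and Usp51).

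**Figure D1:**
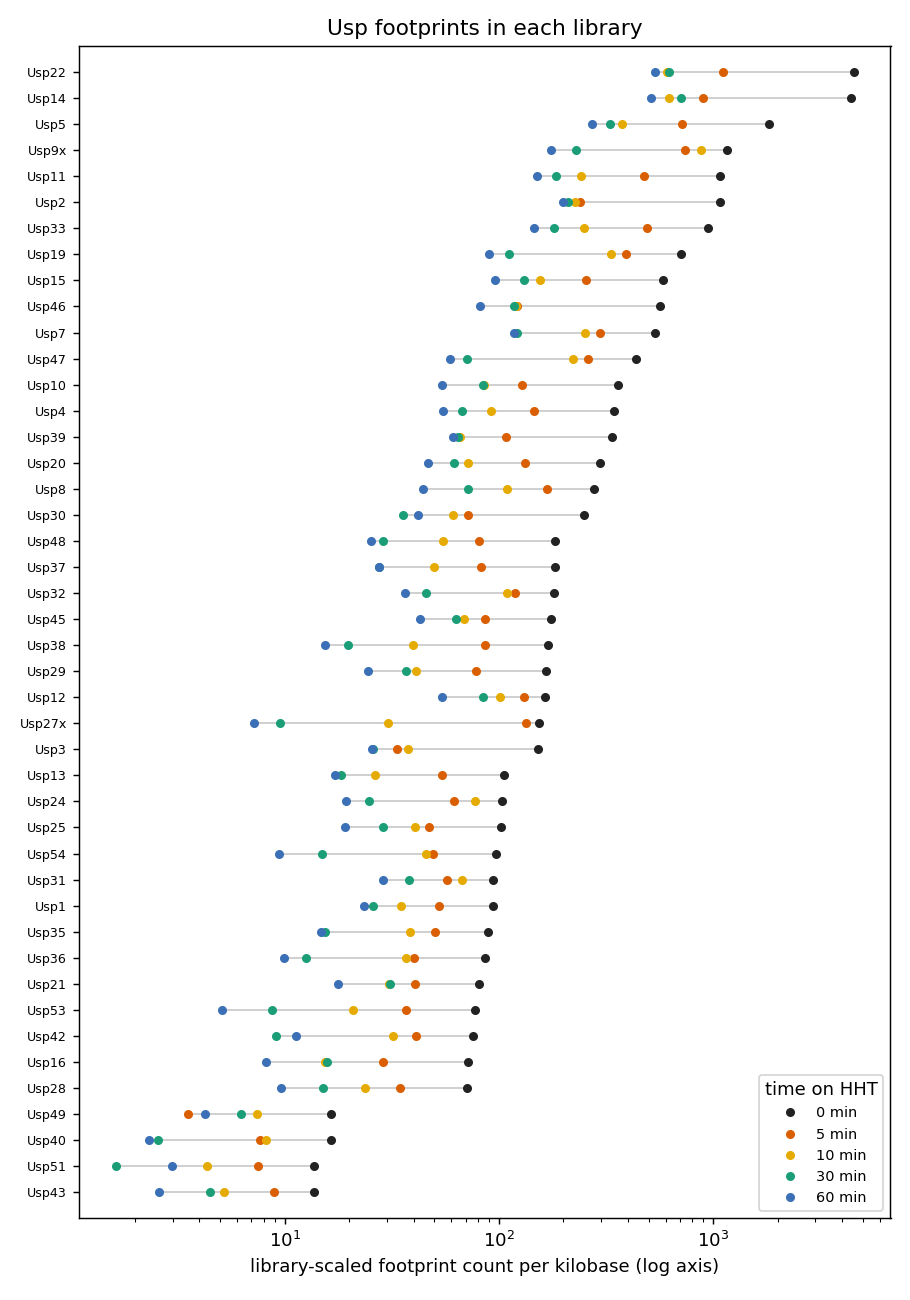
Footprint signal (library-scaled count per kilobase, log axis) of each of the 44 Usp genes, ordered by its value at 0 min; each dot is 1 library and colour gives the minutes on HHT. Usp22 and Usp14 start above 4000, 4 genes start under 20, and for every gene the 0 min dot is the rightmost.

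Scaled by the deposited factors, every member had less signal in each later library than at 0 min. Those factors lie between 0.828 and 1 and their origin is not stated, so this fall goes with the drop in total counts. The members' median ratio to the 0 min signal went 0.482, 0.308, 0.193 and 0.156 over the later libraries, beside 0.333, 0.268, 0.223 and 0.181 over all genes. With each library scaled by TMM, a method that sets the typical gene level, the members' median ratios were 1.45 and 1.16 at the first 2 later times and 0.853 and 0.850 at the last 2. On TPM they were 1.54, 1.05, 0.809 and 0.768, so the direction at 5 and 10 min turns with the scale. With the deposited factors the family's median lay above that of all genes at the 5 and 10 min libraries and below it at the 30 and 60 min libraries. Members are longer than the typical gene (median CDS 2827.5 nt against 1626), so all genes are a background of unlike length. The members' share of all counts was 0.588%, 0.673%, 0.658%, 0.462% and 0.452% in time order. The ratio ran from 0.0467 (Usp27x) to 0.330 (Usp12) at 60 min, and its counting interval lay wholly under 1 at that time for 44 of 44 members (97.4% of all genes). It did so for 40 of 44 at 5 min (94.0%), 43 at 10 min (92.9%) and 44 at 30 min (95.9%). All ratios share the single 0 min library, and their 95% intervals cover counting error only.

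A line fitted to each gene against log2(minutes + 1), across the 5 libraries, gave the 1 test that the design allows. It had 3 residual degrees of freedom per gene, in which scatter between libraries and departures from a straight line are mixed. The edgeR test also draws each gene's variance toward that of the other genes, so its p-values rest on more than these 3. With libraries set by the deposited factors, 43 of 43 members tested were lower with time at an adjusted p under 0.05 (Benjamini-Hochberg) by edgeR's quasi-likelihood test. That is near the background, since 94.2% of the 9444 genes tested were called lower and 0 higher, and the slope was below 0 for 43 of 43 members as for 9442 of all genes (100% when rounded). DESeq2's Wald test called 42 of 43 lower (92.1%). Without the 0 min library 37 of 42 were lower (47.7%) and 0 higher (0.533%), beside a background of typically shorter genes. Usp51, with a mean under 10 counts, was the member not tested. Slopes ran from -0.80 (SE 0.159, adjusted p = 5.35e-04) for Usp27x to -0.25 (SE 0.0944, adjusted p = 0.0216) for Usp12. On plain minutes 0 of 43 were called (0.254% of all genes) and 30 had an unadjusted p under 0.05 (39.3%), so the calls rest on the log scale of time.

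Members also differed in when the signal left. The signal was first under 0.5 of its 0 min value at 5 min for 24 of 44 members (78.1% of all genes). The genes behind the percentages here are typically shorter than the members. For 14 members this came at 10 min (9.50%), for 5 at 30 min (9.98%) and for 1 at 60 min (1.25%), and 0 members stayed over it throughout (1.20%). Thus 38 members were under 0.5 in the 10 min library (84.3%), 43 in the 30 min library (95.4%) and 44 in the 60 min library (97.3%). The 24 early members had a CDS of 1101 to 3708 nt. The 5 late ones, Usp31, Usp47, Usp32, Usp9x and Usp24, had 4035 to 7854 nt. Both ranges were overlapped by that of the 14 members of 10 min, 1317 to 4767 nt. Usp12, the single gene that took until 60 min, has 1113 nt and 84 counts at 0 min. The split depends on the threshold: with 0.4 in place of 0.5 the numbers were 10, 21, 11 and 2.

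CDS length went with the ratio over the 44 members at the early times. Spearman's rho was 0.530 and 0.697 at the 5 and 10 min libraries, then -0.00078 and -0.13 at the 30 and 60 min libraries. Over all 10329 genes it was 0.700, 0.474, 0.128 and 0.0735. These are descriptions across genes that share 5 libraries. In the 14 members of 2000 to under 3000 nt the median ratio fell from 0.442 at 5 min to 0.257 at 10 min, while 2073 genes of that length had 0.425 and 0.283. In the 13 members of 3000 to under 4000 nt the median was 0.507, 0.396 and 0.158 at these times. The 894 genes of that length had 0.529, 0.420 and 0.238.

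The longest members did not lose signal between 5 and 10 min. Usp9x had signals of 1155, 743, 875, 229 and 175 in time order. Its 10 min signal was 1.18 times that at 5 min (95% counting interval 1.13 to 1.22) and its 30 min signal 0.262 times that at 10 min (0.247 to 0.278). Usp24, a large enzyme of the same length class, had 104, 61.4, 77.7, 24.9 and 19.3, with a step of 1.27 (1.11 to 1.45) from 5 to 10 min and of 0.32 (0.265 to 0.384) from 10 to 30 min. These were the 2 members of 44 whose interval lay wholly over 1 from 5 to 10 min (4.56% of all genes). Long genes at large took the same course. The 399 genes of 5000 to under 8000 nt had median ratios to 0 min of 0.641 at 5 min and 0.702 at 10 min. Usp9x had 0.643 and 0.758 at these times, and Usp24 had 0.592 and 0.749. In all, 6 of 44 had a higher 10 min than 5 min signal (31.7%), and 24 had an interval wholly under 1 for that step (27.9%). Usp34, the Usp gene past the length limit, had 115, 84.5, 106, 31.3 and 23.4, the same order of libraries. The scale of the 10 min library moves all genes alike, and a ratio of 2 libraries without replicates carries that uncertainty.

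**Figure D2:**
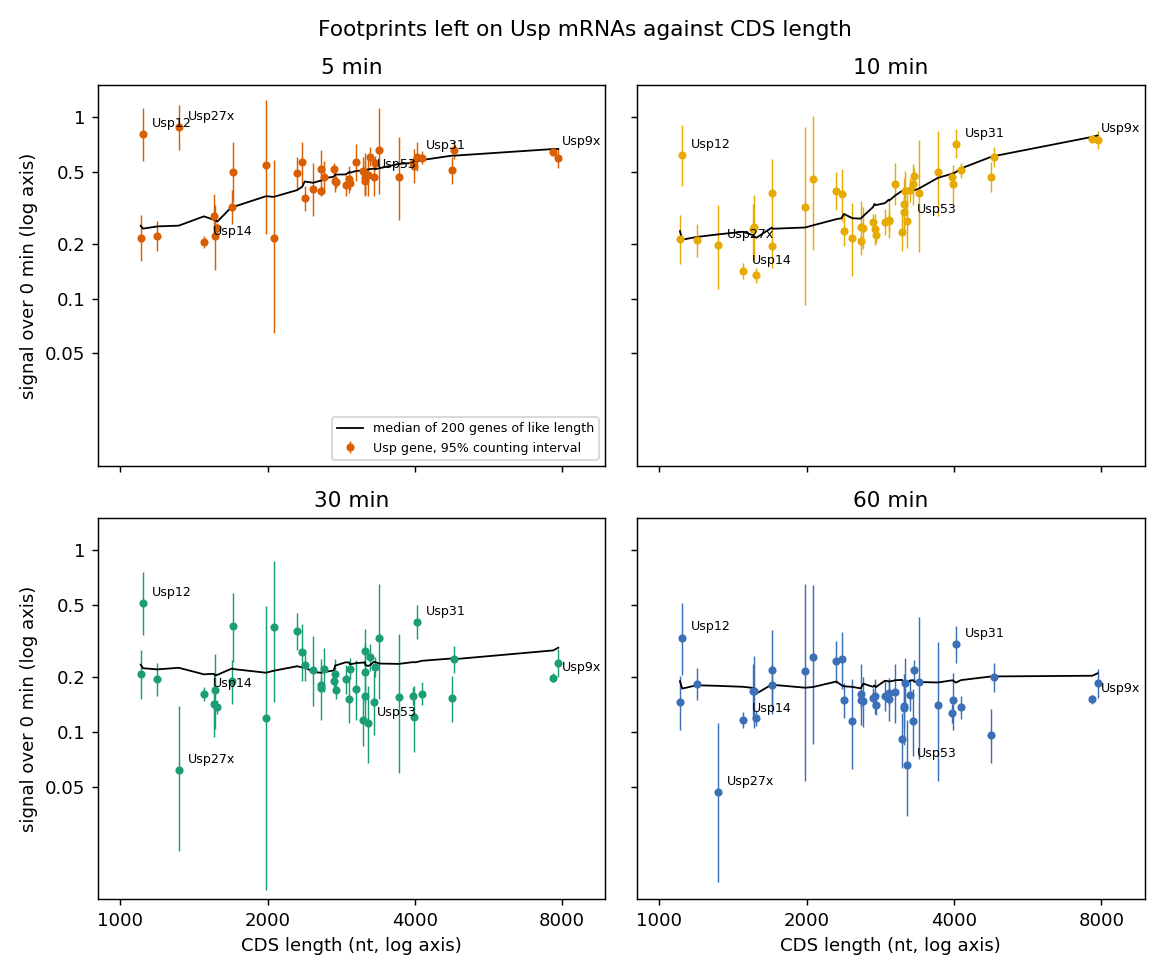
Signal over its 0 min value against CDS length for the 44 Usp genes at 5, 10, 30 and 60 min, both axes log; bars are 95% counting intervals and the black line is the median of the 200 genes of the whole table nearest in CDS length. The line rises with length at 5 and 10 min and is nearly flat at 60 min; Usp12 and Usp27x lie far above it at 5 min, and Usp27x and Usp53 far below it at 60 min.

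To set length aside, each member was placed against the median of the 200 genes nearest to it in CDS length, here called the length trend. Below it lay 27 of 44 members at 5 min (49.8% of all genes), 30 at 10 min (49.8%), 32 at 30 min (49.7%) and then 33 at 60 min (49.6%). The median distance from the trend was -0.06, -0.11, -0.25 and -0.23 log2 units in time order. Of members whose whole interval was clear of the trend, 8 were below and 7 above at 5 min (15.5% and 18.6% of all genes). At 10 min 14 were below and 4 above (18.8% and 22.2%). By contrast 19 were below and 4 above at 30 min (19.3% and 21.6%). At 60 min these numbers were 15 and 3 (18.5% and 22.3%). Members had more counts at 0 min than the typical gene (median 352 against 208), and more counts give narrower intervals.

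The 3 members that recycle ubiquitin chains ended below genes of their length. Usp14 had signals of 4385, 901, 624, 711 and 513 in time order. Its ratio was 0.205 (0.190 to 0.222) at 5 min and 0.117 (0.106 to 0.129) at 60 min, where genes of its length had 0.177. It was the 1 member whose counting interval lay wholly over 1 from 10 to 30 min (2.05% of all genes). That step was 1.14 times (1.0045 to 1.29), so the interval cleared 1 narrowly, and it rests on the factors of these 2 libraries. In all, 4 of 44 had a higher signal at 30 than at 10 min (30.1%), and 25 had an interval wholly under 1 for that step (25.5%). Usp5 went 1819, 713, 376, 329 and 273, and its relative Usp13 went 106, 54.5, 26.3, 18.4 and 17.2. Both have a CDS of 2577 nt. Their ratios at 60 min were 0.150 (0.137 to 0.164) and 0.162 (0.109 to 0.235), which overlap. All 3 lay below the length trend at 10, 30 and 60 min, those of Usp13 within its counting interval.

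Enzymes acting on histones and chromatin held the highest level at 0 min and the lowest ratio at 60 min, the latter from 5 counts of Usp27x and with an interval that overlaps that of Usp53. Usp22 (chromosome 11, 61151781 to 61175059 in GRCm38) went 4527, 1106, 610, 623 and 537. Its ratio at 60 min was 0.119 (0.108 to 0.130), against 0.162 for genes of its length. Usp27x (X, 7372591 to 7375830), an X-linked relative of Usp22, behaved unlike it: its counts were 110, 93, 18, 6 and 5 and its signals 153, 134, 30.3, 9.49 and 7.16. At 5 min its ratio was 0.876 (0.657 to 1.17), where genes of its 1317 nt had 0.252. At 30 min it was 0.0619 (0.0222 to 0.139) and at 60 min 0.0467 (0.0149 to 0.112), where those genes had 0.225 and 0.179. The intervals of Usp22 and Usp27x were apart at 5 min and overlapped at the other 3 times. Its distance from the trend was 1.80 log2 units at 5 min and -1.94 at 60 min. Usp51, the remaining relative, had 19, 10, 5, 2 and 4 counts, too few to place it.

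Usp27x had the lowest ratio of the family at 60 min, so the other chromatin members stood above it by definition. Its interval there, 0.0149 to 0.112, lay wholly below those of Usp7 and Usp21. It overlapped those of Usp22, Usp3, Usp16, Usp36, Usp49 and Usp51, so their order against Usp27x is not resolved by counting error. Usp7, which protects Mdm2 and p53 from degradation, had signals of 534, 296, 253, 121 and 117. Its ratio at 60 min, 0.219 (0.193 to 0.248), was above the 0.189 of genes of its length. Usp21, a histone H2A deubiquitinase, kept 0.382 (0.244 to 0.584) at 30 min against 0.222, and 0.219 (0.126 to 0.363) at 60 min against 0.182, which its interval includes. Usp36, a nucleolar enzyme, had 0.115 (0.0737 to 0.173) at 60 min against 0.193. Usp3 and Usp16, which also act on histone H2A, had 0.169 (0.105 to 0.261) and 0.115 (0.0626 to 0.197), both overlapping the trend. Usp49 had 24, 5, 9, 8 and 6 counts, and its interval at 60 min ran from 0.0859 to 0.645. Usp44, also on the list of this group, was not in the count table.

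Usp1, Usp12 and Usp46 need the WD-repeat protein Wdr48 for full activity. Usp46, which has been linked to glutamate receptor turnover, and its close relative Usp12 have coding sequences of 1101 and 1113 nt and separate courses. Usp46 had signals of 563, 122, 121, 118 and 82.0. Usp12 (chromosome 5, 146734809 to 146794956) had 164, 131, 101, 84.0 and 54.1. At 5 min the ratio was 0.217 (0.161 to 0.288) for Usp46 and 0.802 (0.571 to 1.12) for Usp12. The 10 min values were 0.214 (0.155 to 0.290) and 0.618 (0.418 to 0.903), those at 30 min 0.209 (0.153 to 0.282) and 0.513 (0.340 to 0.761). At 60 min they were 0.146 (0.102 to 0.203) and 0.330 (0.206 to 0.515). The 2 intervals were apart at all 4 times. With 65, 43, 38 and 27 counts after HHT, Usp12 was 1.72, 1.55, 1.20 and 0.93 log2 units above genes of its length. Usp1, which acts in DNA repair, went 93.4, 52.5, 35.1, 25.9 and 23.4, 0.47 above the trend at 60 min with an interval that includes it. Of the partners, Wdr48 kept 0.153 at 60 min, Wdr20 0.199 and Dmwd 0.201.

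Members tied to endosomes and receptor sorting lay close together at 60 min, within the quartiles of all 44 members (0.138 to 0.186). The ratios of Usp2, Usp8, Usp9x, Usp10, Usp20 and Usp33 lay between 0.150 and 0.184 there, although they had run from 0.221 to 0.643 at 5 min. Usp2 had most of its drop by 5 min, with 1080, 238, 227, 211 and 198. Usp8, an endosomal enzyme that spares internalised receptors from the lysosome, declined at every step, with 277, 167, 110, 71.7 and 44.3. Usp20 and Usp33, relatives that act on receptor recycling, followed each other: 298, 132, 71.9, 61.7 and 46.8 for the former, 943, 490, 250, 180 and 145 for the latter. Their ratios overlapped at all 4 times. Usp10, an enzyme of p53 and stress granule proteins, had 361, 128, 85.4, 84.0 and 54.2.

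Usp19, anchored in the endoplasmic reticulum, and Usp30, of the outer mitochondrial membrane, had both fallen below genes of their length at 30 min. Usp19 had 708, 393, 332, 112 and 89.7, with a drop to 0.337 times (0.296 to 0.382) between 10 and 30 min. Its ratio at 60 min was 0.127 (0.112 to 0.143) against 0.192. Usp30 had 251, 71.7, 60.8, 35.7 and 42.0. Its ratio at 30 min, from 30 counts, was 0.142, with an interval (0.0940 to 0.2087) that ended just under the 0.2089 of genes of its length. Usp30 lay above the trend at 5 and 10 min, and its interval at 60 min, 0.116 to 0.236, includes the trend. It was 1 of 4 members with a higher signal at 60 than at 30 min (20.1%). For 0 members did the interval of that step lie wholly over 1 (0.581%), and for 15 it lay wholly under 1 (23.9%). Of the members tied to splicing, Usp4 had 346, 146, 91.8, 67.4 and 54.8 and Usp15 had 586, 255, 156, 131 and 95.5. Usp39 had 338, 108, 66.2, 64.2 and 61.0, little changed after 10 min. They kept 0.158, 0.163 and 0.180 at 60 min, where genes of their length had 0.191, 0.189 and 0.182. Usp11, the X-linked relative of Usp4 and Usp15, went 1081, 474, 241, 184 and 151 and kept 0.140 (0.124 to 0.157), an interval that overlaps both.

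Usp31, named with NF-kappa B signalling, kept more than genes of its length from 10 min on. Its signals were 94.3, 57.0, 67.1, 38.0 and 28.7. The ratio was 0.712 (0.592 to 0.854) at 10 min, 0.403 (0.323 to 0.50) at 30 min and 0.304 (0.240 to 0.383) at 60 min, where genes of its 4035 nt had 0.498, 0.242 and 0.187. Its relative Usp43 had 38 counts at 0 min and 7 at 60 min, and its intervals overlap those of Usp31 throughout. Usp25, the other measured gene of this group, had 103, 47.2, 40.4, 28.7 and 19.2 and lay on the trend with 0.187 (0.134 to 0.255) at 60 min, and its relative Usp28, with 70.8, 34.5, 23.6, 15.1 and 9.65, had 0.136 (0.0851 to 0.209).

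Members tied to the cell cycle and DNA damage went different ways. Usp45, a partner of the repair nuclease Ercc1, had 176, 86.0, 69.0, 62.8 and 43.0 and lay above the trend with its whole interval at 5, 10 and 30 min. Usp47 and Usp48 lay below it at 30 and 60 min. Usp47 went 435, 260, 221, 70.7 and 59.4, with a ratio of 0.136 (0.117 to 0.158) at 60 min against 0.193. Usp48 went 183, 81.0, 54.7, 28.8 and 25.3, ending at 0.138 (0.104 to 0.180) against 0.185. Usp37, a cell cycle enzyme, went 183, 82.8, 49.5, 27.6 and 27.7, and Usp29, an imprinted gene, 166, 77.8, 40.9, 36.7 and 24.5. They had 0.151 and 0.148 left at 60 min, with intervals that include the trend.

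The lowest late ratios besides that of Usp27x were those of Usp53, Usp38 and Usp54. Usp53 and Usp54, long held to lack protease activity, had 77.4, 36.9, 20.8, 8.69 and 5.12 and 97.4, 49.5, 45.8, 15.0 and 9.37. At 60 min Usp53 kept 0.0661 (0.0346 to 0.116) and Usp54 0.0962 (0.0671 to 0.134), against 0.184 and 0.202 for genes of their length. Their intervals were apart at 10 min, 0.190 to 0.373 for Usp53 and 0.389 to 0.566 for the longer Usp54, and overlapped at the other times. Usp38 had 170, 86.0, 39.6, 19.7 and 15.4 and kept 0.0910 (0.0635 to 0.127) at 60 min against 0.193. Its relative Usp35, with 89.3, 50.3, 38.3, 15.4 and 14.8, kept 0.166 (0.112 to 0.238), and the intervals of the pair were apart at 10 min alone. Usp39, the splicing member without a working catalytic site, kept 0.180. Usp36 and its relative Usp42, which acts on p53, had 86.0, 40.3, 36.7, 12.6 and 9.90 and 75.6, 40.8, 32.2, 9.07 and 11.3, both with a sharp step between 10 and 30 min. Usp32, a long membrane-linked member, lay about 0.10 log2 units above the trend at 5 min and closer to it later, with 181, 119, 109, 45.5 and 36.3.

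**Figure D3:**
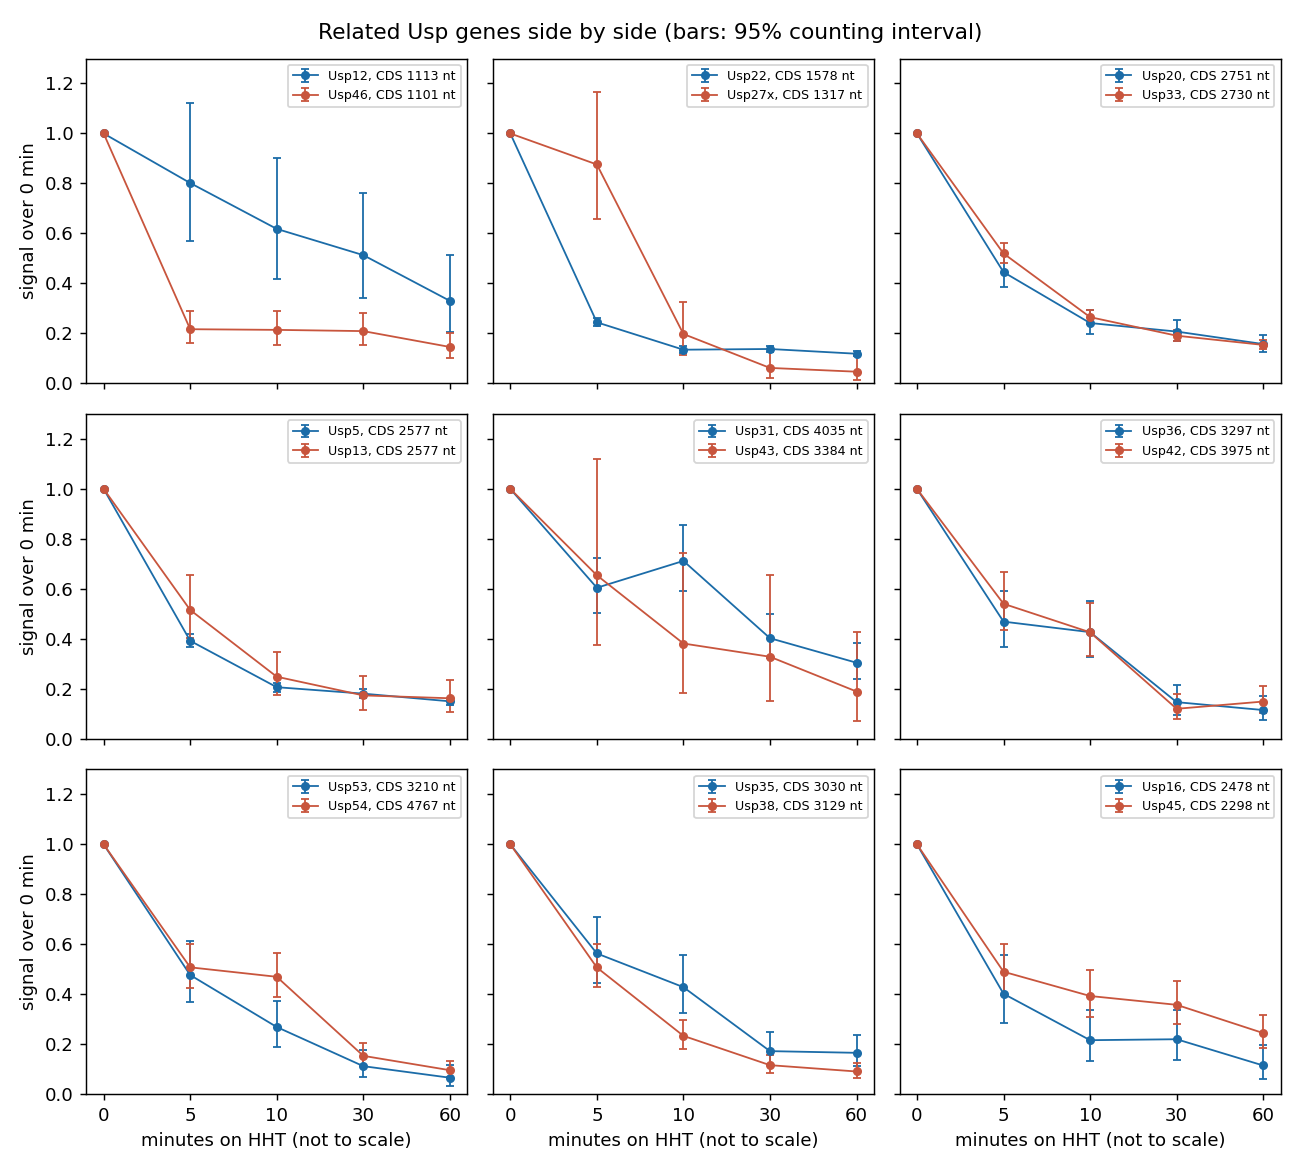
Signal over its 0 min value in the 5 libraries for 9 pairs of related Usp genes, with CDS lengths in the legends; bars are 95% counting intervals, and the value at 0 min is 1 by definition. Usp12 and Usp46 are apart at every time after 0 min, Usp22 and Usp27x cross between 10 and 30 min, and Usp20 and Usp33 overlap throughout.

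The slope relative to other mRNAs was called for almost no gene of the whole table, so a lack of calls says little about the members. With TMM scaling 0 of 43 members were called in either direction by edgeR's quasi-likelihood test (0.0106% of all genes lower, 0 higher). At an unadjusted p under 0.05, 0 members were lower and 0 higher (5.48% and 6.75% of all genes). DESeq2's Wald test, with its own library scaling in place of TMM, also called 0 (0.402% and 0.381%). The slope was below 0 for 34 of the 43 (51.6% of all genes), with a median of -0.06 over members and -0.0041 over all genes. Lowest were Usp27x at -0.34 (SE 0.20, adjusted p = 0.549), Usp53 at -0.24 (SE 0.107, adjusted p = 0.415) and Usp38 at -0.22 (SE 0.0974, adjusted p = 0.415) by that edgeR test. Highest were Usp12 at 0.16 (SE 0.0915, adjusted p = 0.545) and Usp31 at 0.13 (SE 0.0925, adjusted p = 0.650).

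Other fits gave some calls. With the trend on CDS length taken out of each library, Usp38 (-0.20, SE 0.0500, adjusted p = 0.0348), Usp53 (-0.23, SE 0.0591, adjusted p = 0.0380) and Usp54 (-0.16, SE 0.0416, adjusted p = 0.0368) were lower by edgeR, 3 of 43 members against 4.63% of all genes, and 0 were higher (4.26%). Without the 0 min library, 14 of 42 members were lower with TMM scaling (10.1% of all genes) and 0 higher (5.10%). They were Usp8, Usp9x, Usp19, Usp24, Usp27x, Usp32, Usp35, Usp36, Usp38, Usp42, Usp47, Usp48, Usp53 and Usp54. Of these 14, 13 have a CDS over 3000 nt, and Usp27x is the exception. A CDS of that length is found in 19 of the 44 members and in 1792 of all 10329 genes.

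**Figure D4:**
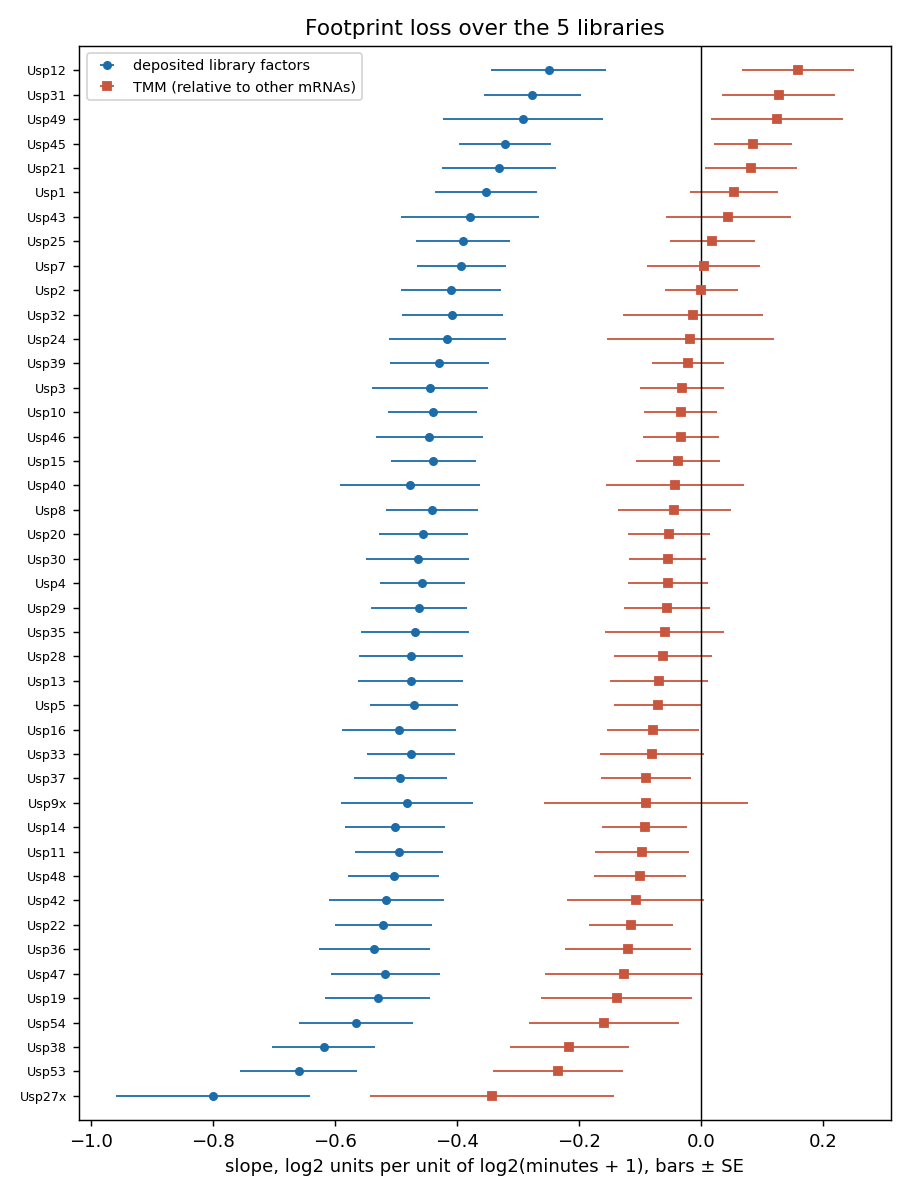
Slope of each of the 43 tested Usp genes on log2(minutes + 1), in log2 units, under the deposited library factors (circles) and under TMM (squares), with bars of ± 1 SE; the vertical line marks 0. All circles lie left of 0, between -0.80 and -0.25, while the squares spread around 0 from -0.34 to 0.16.

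The rest of the pathway gives a frame. Of 33 other deubiquitinase genes listed, 26 were tested and 0 were called with TMM. With the deposited factors 25 were lower by edgeR, beside 94.2% of all genes. The gene without a call was Otub2, an ovarian tumour (OTU) domain enzyme that kept 0.780 of its signal at 60 min (slope -0.02, adjusted p = 0.836). Tnfaip3, the inflammation brake A20, kept 0.0362 and was lowest. Cyld, a Usp-type enzyme with another name that this list also held, kept 0.170, and Uchl1, the abundant neuronal hydrolase, 0.213. All 8 tested Usp cofactors were called lower, from 0.121 (Psmd2, a proteasome subunit) to 0.252 (Atxn7l3, the SAGA adaptor of Usp22) at 60 min. All 4 tested ubiquitin and activating enzyme genes were called lower as well, with 0.238 left for Ubb and 0.173 for the activating enzyme Uba1. The median ratio at 60 min was 0.163 for these other deubiquitinases (Cyld included), 0.199 for the cofactors and 0.188 for the ubiquitin genes, beside 0.156 for the 44 Usp members.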

How the data were processed

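The authors deposited estimated counts of footprints per gene over the CDS without its ends, tagged RSEM in the deposit; all are whole numbers. The tools listed, per the submitters' processing notes, are TopHat2 2.0.9, Bowtie2 2.1.0, SAMtools 0.0.19, Trimmomatic 0.32 and cutadapt 1.7.1, with mm10 as the build and no roles stated. The split of reads between related genes was not stated. The deposited signal equals count over (CDS length - 600 nt) in kilobases, divided by library factors of 1, 0.965, 0.828, 0.882 and 0.973 of unstated origin; the deposited ratio columns equal its quotients, and the deposited score columns of fractions lost were not used. A second deposited table holds a score, TPM rounded by the authors, for 18527 genes. Short coding sequences leave little to count: Usp46 keeps its 1101 nt less 600. The lowest count at 0 min in the count table was 11. Intervals are exact 95% conditional binomial intervals; reads carried no stated molecular identifiers, so they cover counting error only.

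Slopes were fitted over all genes with a mean of at least 10 counts in edgeR 4.0.16 (R 4.3.3), with DESeq2 1.42.0 and limma 3.58.1 as alternatives; the SE is the slope over the square root of F. The edgeR slope fit was tested on simulated counts, under TMM and under given library factors. The fit with the length trend removed, the DESeq2 and limma fits and the ratios were not. All 44 transcripts matched RefSeq's GRCm38.p6 table, the assembly behind mm10, which gave positions. Named were the highest and lowest members by level, late ratio or distance from the length trend, related genes, and role groups. The members and lists were chosen with earlier results of these data known. With 1 pool per time, p-values measure only the scatter of these libraries around a line, with information on variance shared between genes. No sequence of these coding regions or proteins was used here.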

Additional observations from a re-analysis of the deposited data

How the results depend on the processing

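Of 82 recomputed values, 61 were counted as unchanged from the main value, by margins that differ between kinds of value. Counts of 0 that stayed 0, as for members called higher, are among the 61. With the deposited factors the number of members called lower was 37 to 43 when a library was left out. Over all genes those fits called from 4114 of 8631 (without the 0 min library) to 9173 of 9526 (without the 5 min library). The number of members was 44 of 44 without the filter on counts (9556 of 10329 genes), 42 by DESeq2 (92.1% of all genes) and 0 on plain minutes (0.254%). With TMM the number called lower was 0 to 14 when a library was left out (14 without the 0 min library). Over all genes those fits called from 0 of 9526 to 874 of 8631. With the length trend removed it was 3 (4.63% of all genes). It was 0 in the other fits, some of which used DESeq2's own scaling, RLE scaling or TPM in place of TMM. No member was called higher in any fit run, where at most 440 of 8631 genes were. Median ratios on TMM-scaled counts were 1.45, 1.16, 0.853 and 0.850 at 5, 10, 30 and 60 min, and on TPM 1.54, 1.05, 0.809 and 0.768, which turns the direction at 5 and 10 min; TMM sets the typical gene level and TPM the library total. With a threshold of 0.4 the members first under it numbered 10 at 5 min, 11 at 30 min and 2 at 60 min, and with at least 100 counts at 0 min none (0) remained at 60 min. On TPM the shares of the 0 min signal were 19.3% for Usp22, 18.8% for Usp14, 7.85% for Usp5, 7.06% for Usp9x, 4.52% for Usp11 and 2.91% for Usp2; the cause was not tested. No paired analysis was possible because each time has 1 library and the labels carry no replicate numbers. Depth limits Usp27x, Usp40, Usp43, Usp49 and Usp51, with 4 to 7 counts at 60 min.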

Other observations

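A further 5 symbols of the same form were listed in the TPM table and not in the count table. Usp26, Usp44 and Usp9y were listed at 0 in all 5 libraries, which, as for Snap25, need not mean an absence of footprints. Usp18, a protease for the ubiquitin-like protein ISG15, was listed at 1, 1, 0, 2 and 0 TPM in time order, and Usp50 at 1, 0, 0, 3 and 3. Among members, 3 were picked after their values were seen because the TPM table gave them another course. For Usp20 the TPM was 88, 77, 26, 103 and 23, with the 30 min library highest, while its counts were 640, 275, 128, 117 and 98. For Usp12 the TPM went 17, 47, 38, 37 and 28, above its 0 min value in all 4 later libraries, and for Usp27x 16, 47, 11, 4 and 4.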
